A study of Mus musculus with 16 samples.

Results

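The collagen-modifying enzymes and chaperone examined here were 10 genes: the prolyl 4-hydroxylase catalytic subunits P4ha1, P4ha2 and P4ha3, the lysyl hydroxylases Plod1, Plod2 and Plod3, the prolyl 3-hydroxylase P3h1, the collagen chaperone Serpinh1 (HSP47), the procollagen C-proteinase Bmp1 and its enhancer Pcolce. They were chosen by name and not by their own values, although earlier results of these data were known. All 10 were among the 55573 genes of the count table, and all 10 passed the filter on low counts, which left 19955 genes for the tests.

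Poly(A) RNA from the heart ventricles of 16 male mice was sequenced, with 4 hearts in each of 4 groups. All mice carried floxed Trbp alleles (the labels give aMHC-MerCreMer;Trbp-Flox/Flox) and the αMHC-MerCreMer transgene, a tamoxifen-inducible Cre driven by the α-myosin heavy chain promoter, which is active in cardiomyocytes. Control mice received corn oil and Trbp-cKO mice received tamoxifen at 30 mg/kg on 5 days from 4 weeks of age, so that tamoxifen itself and the loss of Trbp cannot be told apart between these groups. Both then underwent sham surgery or transverse aortic constriction (TAC), a ligature that narrows the aorta and loads the left ventricle with pressure, and hearts were taken about 8 weeks later, at 16 weeks of age. The groups are called control sham, control TAC, Trbp-cKO sham and Trbp-cKO TAC. Trbp is an RNA-binding partner of Dicer and is encoded by Tarbp2.

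Collagen chains are modified in the endoplasmic reticulum while they are being made. Prolyl 4-hydroxylases, tetramers of catalytic α subunits and the protein disulfide isomerase P4hb, hydroxylate the prolines that let the triple helix hold at body temperature, and lysyl hydroxylases prepare lysines for crosslinks and glycosylation. P3h1 works in a complex with Crtap and Ppib on a few prolines, and Serpinh1 binds the folded procollagen triple helix and escorts it toward the Golgi. Outside the cell, Bmp1 removes the C-terminal propeptide of fibrillar procollagens, and Pcolce speeds up that cleavage. In the heart these steps are carried out mainly by fibroblasts, and they are known for their part in the fibrosis that follows pressure overload.

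RefSeq promoter windows (GRCm38.p6, 250 bases before to 50 after a start) were held for 8 of the 10 genes, and those for Plod2 and Bmp1 were not. The windows of P4ha1, P4ha2, Plod1 and Serpinh1 are shown because their transcripts lay lower in every Trbp-cKO sham heart than in any control sham heart, and that of Pcolce because it was the gene called after TAC with and without Trbp deletion. Capitals mark matches to the motifs listed after the sequences. The P4ha1 window is chr10:59323046-59323345 on the plus strand, that of P4ha2 chr11:54100674-54100973 on the plus strand, that of Plod1 chr4:147936727-147937026 on the minus strand, that of Serpinh1 chr7:99353190-99353489 on the minus strand and that of Pcolce chr5:137611355-137611654 on the minus strand, each written 5′ to 3′ along the gene.
P4ha1: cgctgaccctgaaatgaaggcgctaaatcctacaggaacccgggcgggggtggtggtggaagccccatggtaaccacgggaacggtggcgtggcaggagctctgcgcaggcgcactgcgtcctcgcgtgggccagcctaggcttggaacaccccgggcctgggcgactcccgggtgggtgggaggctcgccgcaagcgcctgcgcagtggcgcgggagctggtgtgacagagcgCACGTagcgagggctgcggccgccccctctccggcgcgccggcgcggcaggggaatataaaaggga
P4ha2: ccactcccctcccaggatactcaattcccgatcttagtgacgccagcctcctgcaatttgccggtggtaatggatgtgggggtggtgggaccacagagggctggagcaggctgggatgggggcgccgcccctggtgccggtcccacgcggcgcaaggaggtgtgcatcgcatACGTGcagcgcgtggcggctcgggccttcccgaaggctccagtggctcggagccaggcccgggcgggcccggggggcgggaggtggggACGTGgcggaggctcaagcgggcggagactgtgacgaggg
Plod1: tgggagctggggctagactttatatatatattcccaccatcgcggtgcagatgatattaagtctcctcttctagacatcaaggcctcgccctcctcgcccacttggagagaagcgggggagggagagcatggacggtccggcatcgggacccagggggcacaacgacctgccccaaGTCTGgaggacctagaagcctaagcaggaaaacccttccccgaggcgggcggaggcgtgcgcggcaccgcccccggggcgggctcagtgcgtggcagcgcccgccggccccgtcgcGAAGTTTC
Serpinh1: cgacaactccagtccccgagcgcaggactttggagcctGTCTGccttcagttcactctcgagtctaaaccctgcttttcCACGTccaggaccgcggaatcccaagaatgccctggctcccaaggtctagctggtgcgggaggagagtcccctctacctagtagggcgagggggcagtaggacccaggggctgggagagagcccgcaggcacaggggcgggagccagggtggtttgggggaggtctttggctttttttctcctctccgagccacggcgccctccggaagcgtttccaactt
Pcolce: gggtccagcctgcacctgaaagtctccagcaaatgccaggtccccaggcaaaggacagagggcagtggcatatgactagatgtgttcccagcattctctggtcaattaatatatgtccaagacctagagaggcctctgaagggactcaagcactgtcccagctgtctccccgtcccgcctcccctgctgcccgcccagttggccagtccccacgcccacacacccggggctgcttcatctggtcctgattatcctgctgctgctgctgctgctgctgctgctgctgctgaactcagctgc

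Both strands were searched for CAGAC (SMAD box), ACGTG (hypoxia response core), GAANNTTC (heat shock element) and TGACGTCA (cAMP response element), and for the ER stress element. The last bases of the ER stress element can overlap the hypoxia response core, while the other motifs share no full match. P4ha1 held the hypoxia response core once, read as CACGT with its first base at -16 from the start, P4ha2 held it at -78 and 10, and Serpinh1 held it at -171 together with a SMAD box at -212. Plod3 held the core at -54, Plod1 a SMAD box at -74 and a heat shock element at 42, and the second of 2 P3h1 windows the core at -31 and -19. No match lay in the windows of P4ha3 and Pcolce or in the first P3h1 window, and none of the 8 genes held the ER stress or cAMP element. Of all 32851 windows in the RefSeq table, 49.6% held the SMAD box, 19.6% the hypoxia response core, 7.86% the heat shock element, 0.119% the ER stress element and 1.79% the cAMP response element. A match is a description of letters and not of a bound site.

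Counts summed to between 45166994 and 68274222 per heart. Tarbp2, the deleted gene, averaged 32.2 and 27.0 CPM (counts scaled to a common library total) in control sham and control TAC hearts and 9.53 and 8.62 CPM in Trbp-cKO sham and Trbp-cKO TAC hearts, and no Trbp-cKO heart reached a control heart. Of 4 atrial genes, Myl7 and Sln had group means of at most 0.390 and 0.0828 CPM, Myl4 went from 1.91 CPM in control sham to 5.69 CPM in Trbp-cKO TAC hearts, where it was called higher than in control TAC hearts (1.90, adjusted p 0.00019, and 2.26 with an adjusted p of 0.000359 without control TAC hearts 1 and 2), and Nppa, which stressed ventricle also expresses, went from 732 to 12407 CPM. The ventricular light chain Myl2 had group means between 3605 and 4984 CPM. Control TAC hearts 1 and 2 stood apart from the other hearts of their group. The summed CPM of 8 cardiomyocyte markers was 24160 and 19215 there against 44667 and 44341 in hearts 3 and 4, and mitochondrial transcripts took 38.2% and 38.8% of the counts against 25.2% and 21.7%. Most values that involve control TAC hearts are therefore also given without this pair. Trbp-cKO TAC heart 4 also differed from its group, with a cardiomyocyte marker sum of 27404 CPM against 36721 to 44289, activated fibroblast markers of 3238 CPM against 1367 to 2044 and a mitochondrial share of 24.9% against 18.2% to 20.3%. This heart stayed in the fits that left out control TAC hearts 1 and 2. Summed activated fibroblast markers ran from 227 to 381 CPM in control sham, 361 to 995 in control TAC, from 498 to 750 in Trbp-cKO sham and from 1367 to 3238 in Trbp-cKO TAC hearts. Acta2 held 149 to 292 and 389 to 611 CPM of this sum in the control and Trbp-cKO sham groups and was called lower after TAC in control hearts (-1.27, adjusted p 0.0164, and -1.39 with an adjusted p of 0.106 without hearts 1 and 2), and the other 7 markers summed to 70.8 to 89.5, 279 to 907, 109 to 159 and 1031 to 2937 CPM in the order given. Acta2 was called higher after Trbp deletion in sham hearts (1.18, adjusted p 0.0417) and in TAC hearts (2.35, adjusted p 0.000289). Without control TAC hearts 1 and 2 its difference between the TAC groups was 2.46 (adjusted p 0.00299). A score of 13 circadian clock genes (mean log2 CPM, centred over the hearts, with genes of the morning arm counted negative) lay between -0.87 and -0.38 in control sham and between 0.58 and 0.73 in Trbp-cKO sham hearts, with no overlap. In ventricular RNA, a change in the number of cells of a type and a change in RNA per cell cannot be told apart.

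The order of the 10 genes was compared on CPM per kilobase of exon. Serpinh1 was the most abundant of the 10 in every group, at 149.7 ± 12.95 CPM per kilobase (SD, n = 4) in control sham hearts, and its hearts overlapped with no other member. P4ha1 followed in control sham at 30.7 ± 8.05, ahead of Plod1 at 17.1 ± 1.67, Pcolce at 13.3 ± 1.73 and P4ha2 at 13.2 ± 2.25 on the same scale. The hearts of neighbours in this order did not overlap between P4ha1 and Plod1, but they did between Plod1 and Pcolce and between Pcolce and P4ha2. Plod3 (9.62 ± 0.51), Plod2 (5.89 ± 1.40), Bmp1 (5.12 ± 0.34) and P3h1 (3.81 ± 0.25) came next, with overlap only between Plod2 and Bmp1. P4ha3 was the lowest in every group, at 0.084 ± 0.019 CPM per kilobase in control sham hearts. After the rank of Serpinh1, the second place went to Pcolce in the other 3 groups, where its hearts overlapped with those of P4ha1. The order depended on the gene length. With the longest transcript in place of all exons, P4ha1 (31.3), Plod1 (28.3) and P4ha2 (26.8) were followed by Pcolce (19.8) in control sham hearts and the hearts of P4ha1 and Plod1 overlapped, while Plod1 (25.9) stood above P4ha1 (21.8) in control TAC hearts. By all exons Pcolce reached 34.5 ± 4.90 CPM per kilobase in Trbp-cKO TAC hearts.

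The prolyl 4-hydroxylase subunits P4ha1 and P4ha2, which give collagen its 4-hydroxyproline, were both lower in every Trbp-cKO sham heart than in any control sham heart, and P4ha3 was not. P4ha1 stood at 107, 99.8, 126 and 173 CPM in control sham hearts 1 to 4 and at 67.7, 96.1, 78.2 and 110.1 CPM in control TAC hearts. Its level was 65.9, 69.5, 76.2 and 61.9 CPM in Trbp-cKO sham and 114, 113, 151 and 68.6 CPM in Trbp-cKO TAC hearts. Every Trbp-cKO sham heart thus lay below every control sham heart, and Trbp-cKO TAC heart 4 lay among the Trbp-cKO sham hearts while the other 3 lay above them. The fitted log2 fold change was -0.89 ± 0.22 (SE) for Trbp-cKO sham against control sham, with an adjusted p of 0.0602 in edgeR's quasi-likelihood test and an exact permutation p of 0.0286, the smallest that 4 against 4 hearts can give. After TAC it was -0.52 ± 0.22 in control hearts (adjusted p 0.155) and 0.71 ± 0.22 in Trbp-cKO hearts (adjusted p 0.0588). Trbp-cKO TAC and control TAC hearts differed by 0.34 ± 0.22 (adjusted p 0.397). DESeq2, edgeR's exact test and the quasi-likelihood fit of these groups alone put P4ha1 past both thresholds in Trbp-cKO sham hearts (log2 fold changes of -0.90, -0.89 and -0.89, adjusted p 0.00547, 3.08e-05 and 0.0129), as did leaving out Trbp-cKO TAC heart 4 (adjusted p 0.0223) or control TAC hearts 1 and 2 (0.0419). The estimate was -0.90 with an adjusted p of 0.532 with the clock score in the fit and -0.70 with an adjusted p of 0.199 without control sham heart 4.

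P4ha2, the second widely expressed catalytic subunit, was at 72.4, 72.4, 81.4 and 102 CPM in control sham and 55.4, 52.2, 53.1 and 48.8 CPM in Trbp-cKO sham hearts. It was the member whose fall after Trbp deletion passed the adjusted p, at -0.65 ± 0.12 (adjusted p 0.0149), although it stayed short of the 0.8 that a call required. Control TAC hearts held 58.1, 59.8, 67.9 and 77.5 CPM and Trbp-cKO TAC hearts 65.4, 69.5, 67.3 and 61.8 CPM, so these groups overlapped and their difference was 0.0034 ± 0.12 (95% interval -0.25 to 0.26). Each Trbp-cKO TAC heart lay above each Trbp-cKO sham heart, with a log2 fold change of 0.33 ± 0.12 that did not pass (adjusted p 0.0984). The control hearts went from sham to TAC by -0.32 ± 0.12 (adjusted p 0.116). That value was -0.41 without control TAC heart 4 (adjusted p 0.0397) and -0.18 without control TAC hearts 1 and 2 (adjusted p 0.768). The clock score moved with the difference between the sham groups, and with that score in the fit the estimate for P4ha2 was -0.89 with an adjusted p of 0.301. The adjusted p of P4ha2 also exceeded 0.05 without control sham heart 3, Trbp-cKO sham heart 2 or Trbp-cKO sham heart 4 (0.0507, 0.0525 and 0.0558).

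P4ha3, a minor catalytic subunit, rested on 12 to 92 counts per heart. Its levels were 0.335, 0.283, 0.195 and 0.247 CPM in control sham, 0.291, 0.683, 0.298 and 0.263 CPM in control TAC and 0.386, 0.214, 0.337 and 0.309 CPM in Trbp-cKO sham hearts. Trbp-cKO TAC hearts held 0.758, 0.545, 0.631 and 1.46 CPM. All 4 of them lay above the Trbp-cKO sham hearts, and the highest value was that of heart 4. P4ha3 was called higher in Trbp-cKO TAC than in Trbp-cKO sham hearts, by 1.45 ± 0.37 (adjusted p 0.0201). The adjusted p was 0.0699 without Trbp-cKO TAC heart 4, where the estimate was 1.05, and 0.0699 or 0.0547 without Trbp-cKO sham heart 2 or 4. Against control TAC hearts the difference was 1.15 ± 0.36 (adjusted p 0.0777), and without control TAC heart 2, the high value of that group, it was 1.56 (adjusted p 0.0237). Control TAC and Trbp-cKO sham hearts differed from control sham by 0.52 ± 0.38 and 0.22 ± 0.39 (adjusted p 0.382 and 0.884), and the first was 0.096 without control TAC heart 2.

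**Figure D1:**
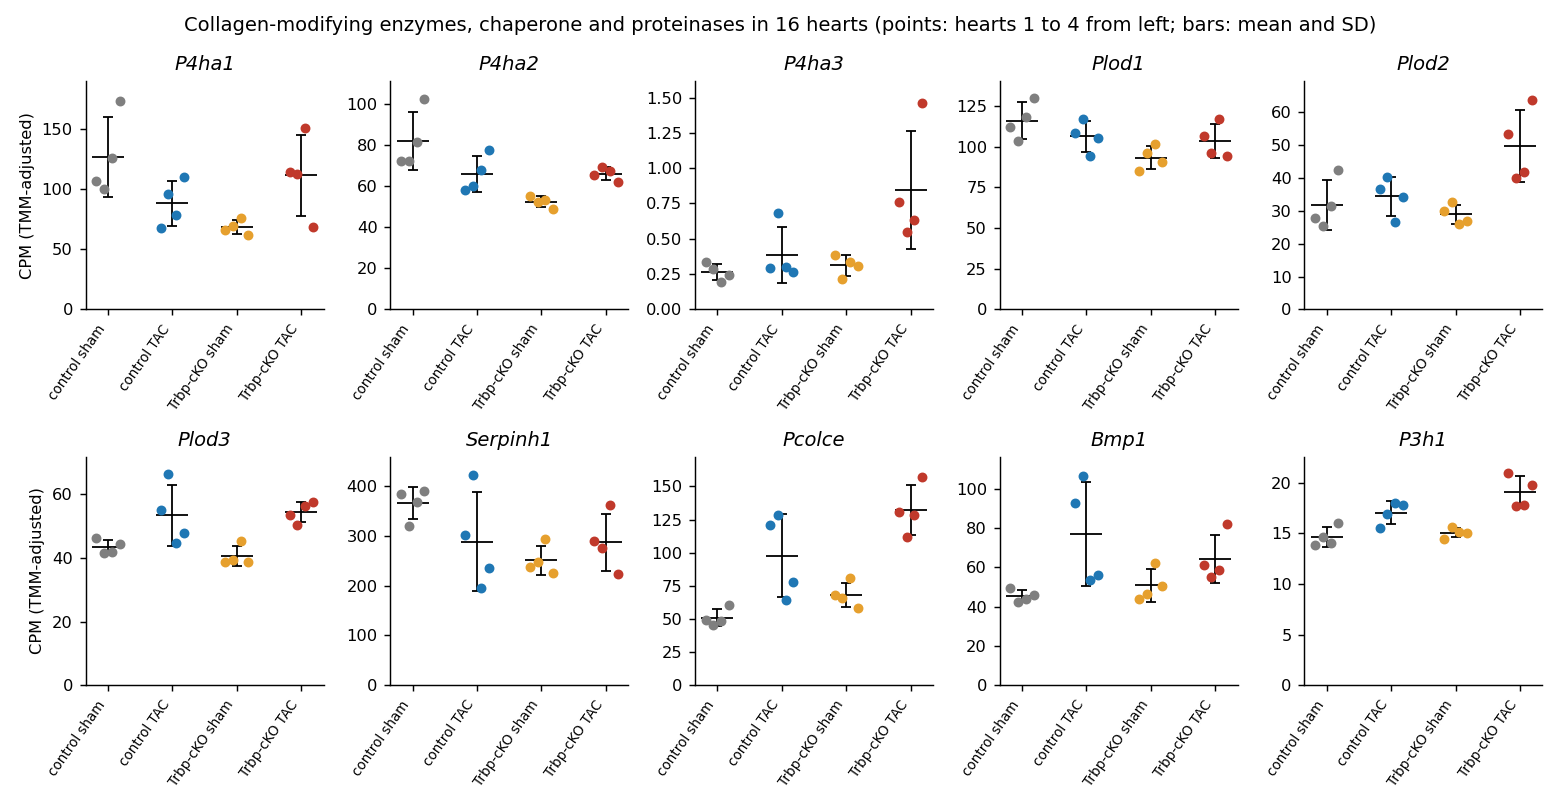
CPM of each of the 10 genes (vertical axes, from 0, on TMM-adjusted library sizes) in the 4 groups, with 1 point per heart in the order of the replicate numbers and bars for the mean and SD of 4 hearts. Pcolce has its highest mean in Trbp-cKO TAC hearts (112 to 157 CPM), which overlap with control TAC hearts (64.3 to 128 CPM). P4ha1, P4ha2, Plod1 and Serpinh1 lie lower in every Trbp-cKO sham heart than in any control sham heart, and control TAC hearts 1 and 2 (the left points of that group) are high for Pcolce and Bmp1.

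Among the lysyl hydroxylases, Plod2, which hydroxylates the telopeptide lysines behind the stable crosslinks of fibrotic tissue, had the largest fold change after TAC in Trbp-cKO hearts. It was at 27.9, 25.3, 31.6 and 42.4 CPM in control sham, 36.5, 40.3, 26.5 and 34.2 CPM in control TAC and 29.8, 32.7, 26.1 and 26.9 CPM in Trbp-cKO sham hearts. In Trbp-cKO TAC hearts the values were 53.2, 40.0, 41.9 and 63.5 CPM, all above those of Trbp-cKO sham hearts. Plod2 rose by 0.78 ± 0.18 from sham to TAC in Trbp-cKO hearts (adjusted p 0.012), just short of the fold change that a call required. The corresponding value in control hearts was 0.11 ± 0.18 (adjusted p 0.715). Between the TAC groups it was 0.53 ± 0.18 (adjusted p 0.0987), and between the sham groups -0.14 ± 0.18 (adjusted p 0.827). The exons of Plod2 share 6.42% of their bases with Gm38391 on the opposite strand, and no source used here states whether the counting used strand.

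Plod3, which also carries collagen glycosyltransferase activity, was at 46.3, 41.5, 41.7 and 44.3 CPM in control sham, 55.05, 66.3, 44.7 and 47.8 CPM in control TAC, 38.7, 39.5, 45.5 and 38.8 CPM in Trbp-cKO sham and 53.6, 50.4, 56.2 and 57.6 CPM in Trbp-cKO TAC hearts. The Trbp-cKO TAC hearts lay above all Trbp-cKO sham hearts, and control TAC heart 2 was the highest of the 16. Plod3 rose by 0.42 ± 0.11 after TAC in Trbp-cKO hearts (adjusted p 0.0259) and differed by 0.30 ± 0.11 after TAC in control hearts (adjusted p 0.115), where it was 0.17 without control TAC heart 2 and 0.089 without hearts 1 and 2. Without control TAC heart 3 alone the value in control hearts was 0.37 (adjusted p 0.0413). The rise in Trbp-cKO hearts kept an estimate of 0.40 to 0.43 but had an adjusted p of 0.0544 to 0.0761 without Trbp-cKO sham heart 1, 2 or 4 or without Trbp-cKO TAC heart 1, 3 or 4, and of 0.0541 with no filter. Trbp deletion gave -0.10 ± 0.11 in sham and 0.03 ± 0.11 in TAC hearts (adjusted p 0.797 and 0.917). Znhit1 lies on the opposite strand and overlaps 11.7% of the exon bases of Plod3, so that reads of both cannot be told apart if strand was not used.

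Plod1, which acts on helical lysines, was the most even of the 3. It ranged from 103 to 130.1 CPM in control sham (median 115), 94.2 to 117 CPM in control TAC (median 107), 85.0 to 101 CPM in Trbp-cKO sham (median 93.2) and 94.3 to 117 CPM in Trbp-cKO TAC hearts (median 101). No Trbp-cKO sham heart reached a control sham heart, although the difference of -0.31 ± 0.11 did not pass (adjusted p 0.18). The remaining differences were -0.12 ± 0.11 after TAC in control hearts, 0.15 ± 0.11 after TAC in Trbp-cKO hearts and -0.04 ± 0.11 between the TAC groups (adjusted p 0.468, 0.464 and 0.873).

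P3h1, the prolyl 3-hydroxylase whose loss causes brittle bones, had the smallest standard errors of the 10. Its values were 13.8, 14.6, 14.1 and 16.004 CPM in control sham, 15.5, 16.9, 18.001 and 17.8 CPM in control TAC, 14.5, 15.6, 15.1 and 15.04 CPM in Trbp-cKO sham and 20.9, 17.7, 17.8 and 19.8 CPM in Trbp-cKO TAC hearts. After TAC it rose in Trbp-cKO hearts by 0.34 ± 0.08 (adjusted p 0.0168), with no overlap between these groups. In control hearts the difference after TAC was 0.22 ± 0.08 (adjusted p 0.113), and Trbp deletion gave 0.04 ± 0.08 in sham and 0.16 ± 0.08 in TAC hearts (adjusted p 0.901 and 0.281). The adjusted p of the rise was 0.053 without Trbp-cKO sham heart 1 and 0.0618 without Trbp-cKO TAC heart 1. It was also above 0.05 in edgeR's exact test (0.078), with no filter (0.0736) and in the fit of these groups alone (0.0523).

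Serpinh1, the chaperone that is specific to collagen, passed the test in none of the comparisons with all 16 hearts. It was at 385, 320.4, 368 and 389.8 CPM in control sham and at 301, 422, 196 and 235 CPM in control TAC hearts. Trbp-cKO sham hearts held 237, 248, 293 and 225 CPM and Trbp-cKO TAC hearts 289, 275, 362 and 224 CPM. All Trbp-cKO sham hearts were below all control sham hearts, and the control TAC hearts spread widely, with hearts 1 and 2 above hearts 3 and 4. Neither this difference between the sham groups (-0.54 ± 0.21, adjusted p 0.227) nor that after TAC in control hearts (-0.34 ± 0.21, adjusted p 0.289) passed. With only the sham groups in the fit, the adjusted p of the first was 0.0171, and without control TAC hearts 1 and 2 it was 0.0484. With the clock score in the fit the estimate was -0.17 (adjusted p 0.864). After TAC in control hearts the value was -0.76 without hearts 1 and 2 (adjusted p 0.0753). The 95% interval of the difference between Trbp-cKO TAC and Trbp-cKO sham hearts ran from -0.24 to 0.63 around 0.20, and that between the TAC groups from -0.44 to 0.43 around -0.0059.

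Pcolce, the enhancer of procollagen C-proteinase, was the only one of the 10 genes called in more than 1 comparison. It stood at 49.5, 45.2, 48.7 and 60.5 CPM in control sham and at 121, 128, 64.3 and 77.7 CPM in control TAC hearts. Trbp-cKO sham hearts held 68.3, 65.8, 80.5 and 58.3 CPM, and Trbp-cKO TAC hearts 131, 112, 129 and 157 CPM. Both TAC groups lay above their own sham group with no overlap. The rise was 0.94 ± 0.20 in control (adjusted p 0.0141) and 0.95 ± 0.20 in Trbp-cKO hearts (adjusted p 0.00568), and the difference of these rises was 0.01 ± 0.28, with a 95% interval of -0.57 to 0.60. Without control TAC hearts 1 and 2 that difference was 0.47 (adjusted p 0.359). The rise in control hearts was smaller without hearts 1 and 2, at 0.48 in the quasi-likelihood test (p 0.00839, adjusted p 0.223). In that fit 106 of all 20821 genes passed the adjusted p as higher and 43 as lower. The remaining control TAC hearts, at 64.3 and 77.7 CPM, still lay above every control sham heart. Without control TAC heart 1 alone the rise was 0.82 (adjusted p 0.0526). In the fit of the control groups alone it was 0.93 (adjusted p 0.0738). Trbp-cKO TAC and control TAC hearts differed by 0.43 ± 0.20 with all hearts (adjusted p 0.211). Without control TAC hearts 1 and 2 the difference between these groups was 0.88 (adjusted p 0.00823). Trbp-cKO sham hearts differed from control sham by 0.42 ± 0.20 (adjusted p 0.36).

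Bmp1, the proteinase itself, was at 49.3, 42.4, 43.7 and 46.1 CPM in control sham, 92.6, 107, 53.6 and 55.9 CPM in control TAC, 43.8, 46.5, 62.4 and 50.4 CPM in Trbp-cKO sham and 61.3, 55.1, 58.9 and 82.2 CPM in Trbp-cKO TAC hearts. Control TAC hearts 1 and 2 held the highest values of all 16 hearts, and hearts 3 and 4 lay just above the control sham hearts. Bmp1 rose by 0.77 ± 0.20 after TAC in control hearts (adjusted p 0.039), short of a call. The adjusted p was 0.113 in the fit of the control groups alone, 0.0608 with the clock score, 0.057 with no filter and 0.0501 with library size only. It exceeded 0.05 in 9 of the 16 fits that left out 1 heart, 4 of them without a control sham heart, 2 without control TAC heart 1 or 2 (0.129 each) and the others without Trbp-cKO sham heart 2 or 4 or Trbp-cKO TAC heart 1, and without control TAC hearts 1 and 2 together the difference was 0.27 (adjusted p 0.622). Trbp-cKO TAC hearts differed from Trbp-cKO sham hearts by 0.34 ± 0.20 (adjusted p 0.351) and from control TAC hearts by -0.26 ± 0.20 (adjusted p 0.485), which became 0.22 without control TAC hearts 1 and 2. Trbp-cKO sham differed from control sham by 0.16 ± 0.20 (adjusted p 0.817).

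**Figure D2:**
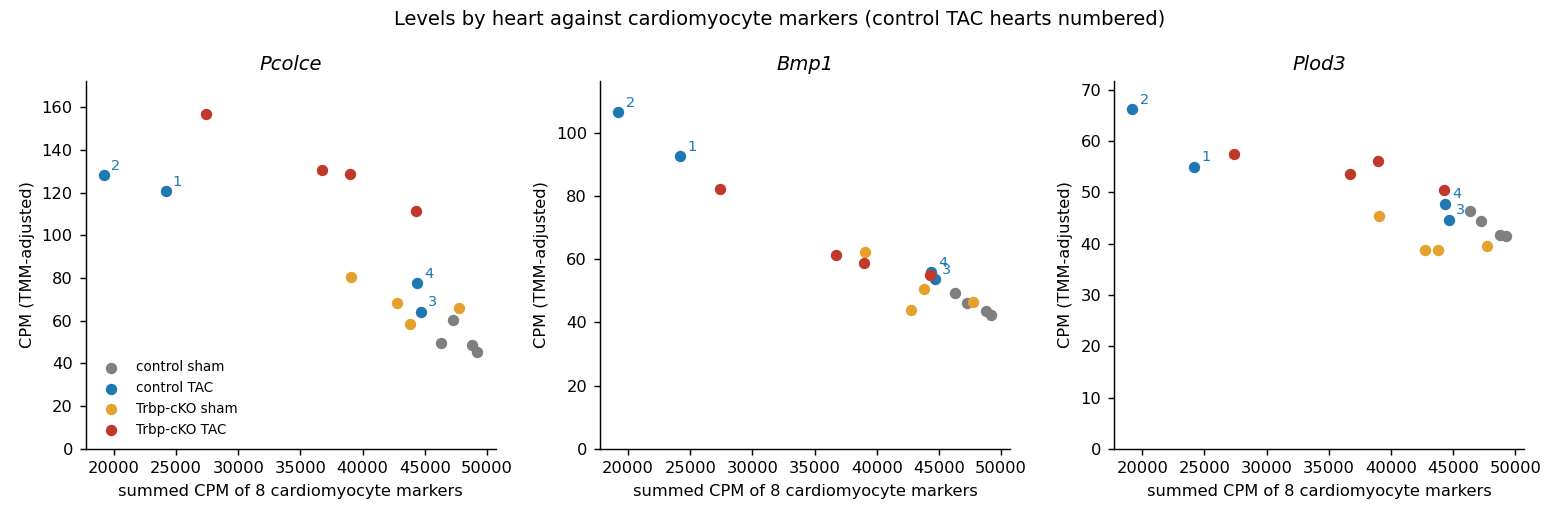
CPM of Pcolce, Bmp1 and Plod3 (vertical axes, from 0) against the summed CPM of 8 cardiomyocyte markers (horizontal axes, which do not start at 0), 1 point per heart, coloured by group and with the control TAC hearts numbered. Control TAC hearts 1 and 2 have the lowest marker sums (24160 and 19215 CPM) and the highest Bmp1 (92.6 and 107 CPM).

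After TAC in control hearts, Pcolce was called higher and Bmp1 passed the adjusted p short of a call, while none of the hydroxylases or the chaperone passed with all hearts. Without control TAC hearts 1 and 2 no member passed (0.48 and 0.27, adjusted p 0.223 and 0.622). Few genes of any kind passed in that fit, 106 as higher and 43 as lower of all 20821. Leaving out control TAC heart 3 alone put Plod3 past the adjusted p (0.37, adjusted p 0.0413). Leaving out heart 4 alone did so for P4ha2, which was lower (-0.41, adjusted p 0.0397). With all hearts 1 of 10 members was called higher, against 2.5% of all genes tested, and 2 passed the adjusted p, against 6.29% in either direction. No member was called lower (1.25% of all genes), and P4ha1 and P4ha2 were below 0 at an unadjusted p under 0.05, against 11.2% of all genes, while Pcolce, Bmp1, Plod3 and P3h1 were above 0 at that p, against 15.4%. Without control TAC hearts 1 and 2, P4ha1, P4ha2, Plod3 and Bmp1 exceeded that p in the quasi-likelihood test (0.14, 0.207, 0.352 and 0.103). Serpinh1 was then below 0 at that p (-0.76, p 0.000791), against 4.33% of all genes in that fit. Pcolce and P3h1 remained above 0 at it (p 0.00839 and 0.00858), against 5.75%. The hearts of 2 members, again Pcolce and Bmp1, did not overlap between the groups, against 17.4% of all genes tested. With only hearts 3 and 4 in the TAC group these were Pcolce, Bmp1 and P3h1, all higher, and Serpinh1, lower, against 29.6% of all genes. The median log2 fold change of the members was 0.17, against 0.02 over all genes tested, and 0.0082 without control TAC hearts 1 and 2.

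Without pressure overload, P4ha2 alone passed the adjusted p after Trbp deletion, and it was lower. It was 1 of 10 members, against 1.68% of all genes in either direction, and no member was called (0.967% of all genes). DESeq2, the fit of the sham groups alone, edgeR's exact test and the fit without control TAC hearts 1 and 2 each called 1 member lower, P4ha1. In the last of these fits 147 of all 20821 genes were called lower, and the shares of all genes in the others are not given here. Past the adjusted p but short of a call were also Pcolce, in the other direction, and Serpinh1 in the exact test (0.42 and -0.54, adjusted p 0.0292 and 0.000357) and Plod1 in DESeq2 (-0.32, adjusted p 0.0338), and with the clock score in the fit no member passed. The share of all genes that passed with that score is not given here. P4ha1, P4ha2, Plod1 and Serpinh1 were the 4 members whose Trbp-cKO sham hearts all lay below the control sham hearts, against 6.96% of all genes. They are a pair of prolyl 4-hydroxylase subunits, a lysyl hydroxylase and the chaperone. Fibroblast markers also separated the sham groups, at 1475 to 1579 CPM in control and 1604 to 2159 CPM in Trbp-cKO sham hearts. Activated fibroblast markers did so too (227 to 381 against 498 to 750 CPM), and the part of either was not tested. The members had a median of -0.12, against 0.01 over all genes.

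In TAC hearts, Trbp deletion changed no member past the adjusted p in edgeR's quasi-likelihood test, against 5.53% of all genes tested. No member was called (2.46% of all genes), and 3 members, P4ha3, Plod2 and Pcolce, had an unadjusted p under 0.05, all with the higher mean in Trbp-cKO TAC hearts, against 11.9% of all genes. DESeq2 put Plod2 (0.54, adjusted p 0.047) and P4ha3 (1.16, adjusted p 0.0352) past the adjusted p, and without control TAC hearts 1 and 2 the quasi-likelihood test called Pcolce and P4ha3 (1.58, adjusted p 0.0497). In that fit 303 of all 20821 genes were called higher and 237 lower. The fit was added after seeing the data and kept Trbp-cKO TAC heart 4, whose cardiomyocyte marker sum was also low (27404 CPM). That heart held the highest Pcolce and P4ha3 of all hearts (157 and 1.46 CPM), and no fit left out both it and the pair. Scaling by library size alone, which moved the median of all genes from -0.01 to 0.13, also put Plod2 and P4ha3 past the adjusted p. The share of all genes that passed in DESeq2 or with that scaling is not given here. No member had hearts without overlap, against 10% of all genes, and P4ha3, Plod2, Plod3 and Pcolce lay above control TAC hearts 3 and 4 in all Trbp-cKO TAC hearts, against 15.2% of all genes. The median of the members was 0.09, against -0.01 over all genes, and 0.23 without control TAC hearts 1 and 2. Activated fibroblast markers separated the TAC groups (361 to 995 CPM in control against 1367 to 3238 CPM in Trbp-cKO hearts). The sum of smooth muscle and pericyte markers did so too (901 to 1066 against 718 to 846 CPM). Its 7 genes were mixed, with 5 below 0, 2 above 0, 1 called higher, 0 called lower and a median of -0.15. The part of either in these values was not tested.

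After TAC in Trbp-cKO hearts 5 of 10 members passed the adjusted p, all of them higher. All 10 had fold changes above 0, against 49.8% of all genes tested. P4ha3 and Pcolce were called higher, 2 of 10 members against 3.23% of all genes. Together with Plod2, Plod3 and P3h1 they made up the 5, against 9.94% of all genes in either direction. Serpinh1, Bmp1, Plod1, P4ha1 and P4ha2 did not pass. P4ha1 did pass in DESeq2 (0.71, adjusted p 0.0215) and in edgeR's exact test (0.70, adjusted p 0.0167). It also passed without control sham heart 4 (adjusted p 0.0497) and without control TAC hearts 1 and 2 (adjusted p 0.0449). The hearts of 6 members (P4ha2, P4ha3, Plod2, Plod3, Pcolce and P3h1) lay above those of all Trbp-cKO sham hearts, against 9.05% of all genes. The median of the members was 0.38, against -0.0016 over all genes. The clock score differed between these groups, since Trbp-cKO sham hearts lay at 0.58 to 0.73 and Trbp-cKO TAC hearts at -0.90 to 0.35. With the score in the fit no member passed, and the estimates of the 5 were 0.78 for Pcolce, 0.85 for Plod2, 0.43 for P3h1, 0.29 for Plod3 and 1.15 for P4ha3 (adjusted p 0.155, 0.0988, 0.0572, 0.396 and 0.312). Without the score they were 0.95, 0.78, 0.34, 0.42 and 1.45 in the same order. The share of all genes that passed with the score is not given here, so the count alone is no result about the members. Activated fibroblast markers also separated these groups (498 to 750 against 1367 to 3238 CPM), and their part in the result was not tested. The sum of smooth muscle and pericyte markers was lower in all Trbp-cKO TAC hearts (718 to 846 CPM) than in the other 12 hearts (869 to 1070 CPM), and its part was not tested either. Without Trbp-cKO TAC heart 4 the estimates of the 5 members were 0.86 for Pcolce, 0.64 for Plod2, 0.32 for P3h1, 0.40 for Plod3 and 1.05 for P4ha3 (adjusted p 0.0172, 0.0365, 0.0366, 0.0573 and 0.0699), and P4ha1 passed with 0.88 (adjusted p 0.0123).

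**Figure D3:**
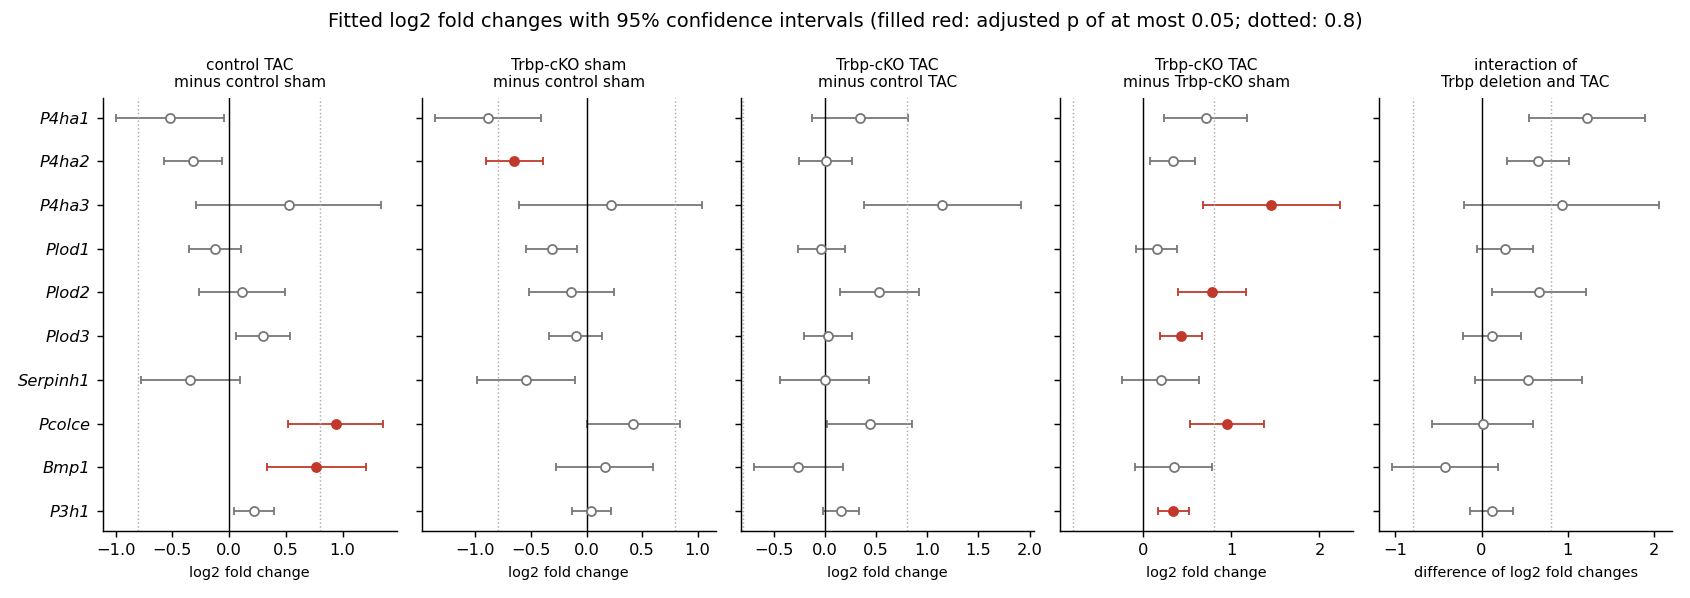
Fitted log2 fold changes of the 10 genes with 95% confidence intervals (horizontal axes, scaled separately) in the 4 comparisons and, at the right, the interaction. Filled red points passed an adjusted p of 0.05 and dotted lines mark a log2 fold change of 0.8. After TAC, 2 genes passed in control and 5 in Trbp-cKO hearts, and the interaction intervals of P4ha1, P4ha2 and Plod2 lie above 0 without passing the adjusted p.

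Whether the effect of Trbp deletion differed between TAC and sham hearts was tested by the interaction. No member passed the adjusted p in edgeR's quasi-likelihood test, against 1.05% of all genes tested, and none was called (0.872% of all genes). At an unadjusted p under 0.05 there were 3 members, all above 0, against 7.18% of all genes. There were 8 without control TAC hearts 1 and 2, all members but Bmp1 and P3h1, against 6.57% of all genes in that fit, and none passed the adjusted p. Serpinh1 then had the smallest p (0.95, p 0.000875, adjusted p 0.0729), and the terms of P4ha3 and P4ha1 were 1.36 and 1.13. With all hearts P4ha1, lower after Trbp deletion in every sham heart and not in TAC hearts, had the smallest p with a term of 1.23 ± 0.32 (p 0.00142, adjusted p 0.0742). P4ha2 followed by p with 0.65 ± 0.17 (p 0.00158, adjusted p 0.0767) and Plod2 with 0.67 ± 0.25 (p 0.0189, adjusted p 0.222). DESeq2 put both prolyl 4-hydroxylase subunits past the adjusted p (1.24 and 0.67, adjusted p 0.0075 and 0.00896). Without control TAC heart 4 the adjusted p was 0.042 for P4ha1 and 0.0334 for P4ha2, and without Trbp-cKO TAC heart 4 it was 0.0214 for P4ha1. Without control TAC hearts 1 and 2 it was 0.164 for P4ha1 and 0.21 for P4ha2, and no member passed with the clock score. Over 26 settings, the main fit included, P4ha1 passed in 3 and P4ha2 in 2, and their adjusted p reached 0.355 and 0.237. The terms of the other members were 0.93 ± 0.53 for P4ha3, 0.54 ± 0.29 for Serpinh1, 0.27 ± 0.15 for Plod1, 0.12 ± 0.16 for Plod3, 0.12 ± 0.12 for P3h1, 0.01 ± 0.28 for Pcolce and -0.42 ± 0.29 for Bmp1. Without control TAC hearts 1 and 2 those of Plod3, P3h1, Pcolce and Bmp1 were 0.33, 0.043, 0.47 and 0.065.

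Within each enzyme family, the share of each isoform was taken from counts per kilobase of exon in each heart, as a description. P4ha1 made up 69.6% ± 1.87 of the prolyl 4-hydroxylase transcripts in control sham (SD, n = 4), 66.4% ± 3.47 in control TAC hearts, and 66.1% ± 1.79 and 70.4% ± 6.38 in the sham and TAC hearts of Trbp-cKO mice. P4ha2 held nearly all of the rest, at 30.2%, 33.2%, 33.5% and 28.8%, while P4ha3 went from 0.203% in control sham to 0.806% in Trbp-cKO TAC hearts. Trbp-cKO TAC heart 4 differed from its group, with 61.7% P4ha1 and 1.72% P4ha3. The split between P4ha1 and P4ha2 depended on the gene length used: with the longest transcript in place of all exons P4ha1 held 53.4% in control sham hearts. Among the lysyl hydroxylases, Plod1 went from 52.5% ± 0.82 of the family in control sham to 46.5% ± 2.13 in control TAC and from 49.0% ± 1.32 in Trbp-cKO sham to 41.9% ± 4.14 in Trbp-cKO TAC hearts. Plod2 took 17.9% ± 2.44, 18.7% ± 1.10, 19.1% ± 2.22 and 25.1% ± 4.37 in control sham, control TAC, Trbp-cKO sham and Trbp-cKO TAC hearts. The share of Plod3 lay between 29.6% and 34.7% in the means of the groups.

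The transcripts of the enzymes were also set against Col1a1, the α1 chain of type I collagen and a main substrate. Col1a1 was at 72.2, 87.6, 79.2 and 83.9 CPM in control sham, 233, 225, 132 and 159 CPM in control TAC, 97.0, 103, 139 and 108 CPM in Trbp-cKO sham and 316, 307, 338 and 533 CPM in Trbp-cKO TAC hearts. It was called higher after TAC in control (1.21 ± 0.21, adjusted p 0.00561, and 0.85 with an adjusted p of 0.0784 without hearts 1 and 2) and Trbp-cKO hearts (1.74 ± 0.21, adjusted p 0.00011) and, among TAC hearts, after Trbp deletion (1.00 ± 0.21, adjusted p 0.0129, and 1.35 with an adjusted p of 0.00417 without control TAC hearts 1 and 2). Between the sham groups Col1a1 differed by 0.47 ± 0.21 and did not pass (adjusted p 0.317), with all Trbp-cKO hearts above all control hearts. For each P4ha1 count there were a geometric mean of 0.652 Col1a1 counts in control hearts after sham surgery and 2.105 after TAC, and of 1.63 and 3.39 in the corresponding Trbp-cKO hearts. For each Serpinh1 count the figures were 0.221, 0.658, 0.445 and 1.28, and for each Pcolce count 1.59, 1.94, 1.64 and 2.78. Pcolce kept the closest ratio to Col1a1 after TAC among the members other than P4ha3: its log2 ratio to Col1a1 changed by -0.29 after TAC in control hearts, where the groups overlapped (-0.37 and no overlap without hearts 1 and 2), and by -0.76 in Trbp-cKO hearts, where they did not.

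The log2 ratio to Col1a1 was lower after TAC for all 10 members in both genotypes. In control hearts 8 of 10 had all TAC hearts below all sham hearts, against 75.2% of all genes tested, and in Trbp-cKO hearts 9 of 10, against 88.6%. After Trbp deletion 7 of 10 members were lower in all sham hearts, against 38.6% of all genes, and 7 of 10 in all TAC hearts, against 54.1%. The last count was 9 of 10 without control TAC hearts 1 and 2, against 88.7% of all genes. The ratio after TAC thus separated the members about as often as genes in general, beside the rise of Col1a1 itself. The largest differences were those of P4ha1 (-1.69), Serpinh1 (-1.58) and P4ha2 (-1.49) after TAC in control hearts and of Plod1 (-1.57) and Serpinh1 (-1.53) after TAC in Trbp-cKO hearts. Without control TAC hearts 1 and 2, Serpinh1 (-1.61) came before P4ha1 (-1.26), Plod1 (-1.06) and P4ha2 (-1.01) after TAC in control hearts, and all 10 members lay below all control sham hearts, against 78.8% of all genes.

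**Figure D4:**
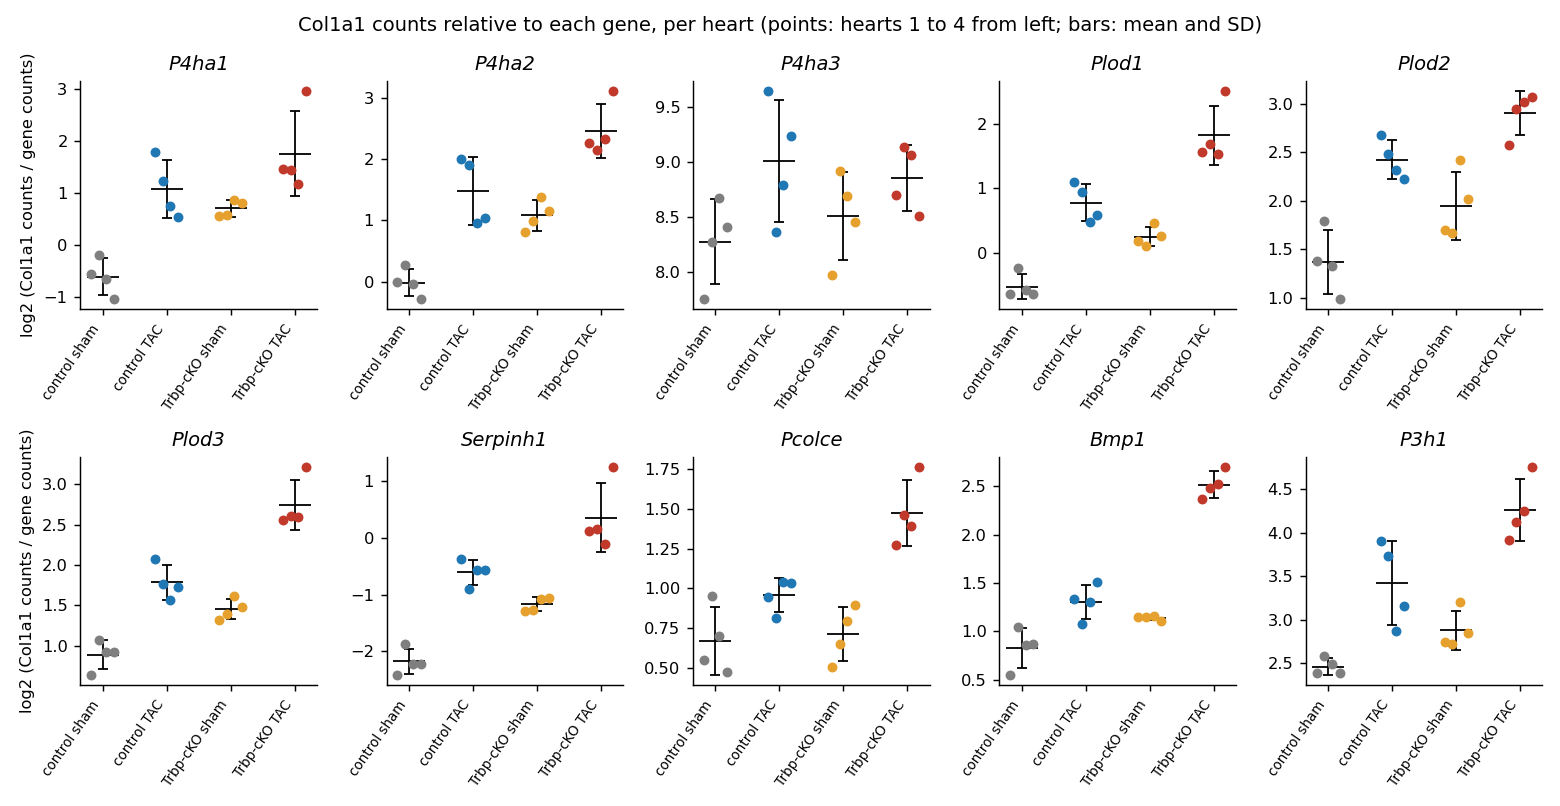
Log2 of Col1a1 counts per count of each of the 10 genes (vertical axes, scaled separately), 1 point per heart and bars for the mean and SD of 4 hearts. The means rise from sham to TAC for every gene in both genotypes. Trbp-cKO TAC hearts have the highest mean for all genes but P4ha3, and for Pcolce control sham, control TAC and Trbp-cKO sham lie close together, at 1.59, 1.94 and 1.64 Col1a1 counts per Pcolce count.

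Other genes of collagen processing were counted from a list of 26 genes, all of which were tested. After TAC in control hearts 1 was called higher and 1 lower (2.5% and 1.25% of all genes), 4 and 2 passed the adjusted p (4.09% and 2.2%), and without control TAC hearts 1 and 2 none passed. Without that pair 106 of all 20821 genes passed as higher and 43 as lower. After TAC in Trbp-cKO hearts 4 were called higher and 3 lower (3.23% and 2.34% of all genes), and 8 and 3 passed (6.02% and 3.92%). Trbp deletion called none of the 26 in sham or TAC hearts, although 5 passed the adjusted p as higher in TAC hearts (5.53% of all genes in either direction). Without control TAC hearts 1 and 2, Adamts2 and Pcolce2 were called higher and Tll2 lower between the TAC groups (0.93, 0.86 and -3.51, adjusted p 0.0109, 0.0458 and 0.0201). Of all 20821 genes in that fit, 303 were called higher and 237 lower. The median log2 fold changes were 0.08, 0.21, 0.34 and 0.26 for TAC in control hearts, Trbp deletion in sham hearts, Trbp deletion in TAC hearts and TAC in Trbp-cKO hearts. P4hb, the shared β subunit of the prolyl 4-hydroxylases, was among those that passed, with 0.62 (adjusted p 0.00253) between the TAC groups and 0.53 (adjusted p 0.00343) after TAC in Trbp-cKO hearts, and it was chosen after its values were seen. In control hearts P4hb differed after TAC by -0.03 (adjusted p 0.874).

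The called genes of that list included the paralogs of P3h1. P3h2, a prolyl 3-hydroxylase that prefers basement membrane collagen, averaged 8.98 and 13.3 CPM in control hearts after sham surgery and TAC and 7.11 and 18.7 CPM in Trbp-cKO hearts, and rose by 1.40 ± 0.19 after TAC in Trbp-cKO hearts (adjusted p 0.000231). P3h3 rose there by 0.82 ± 0.22 (adjusted p 0.0288), with means of 16.2 and 28.6 CPM. In control hearts it rose by 0.78 ± 0.22 (adjusted p 0.0493), and by 0.31 without control TAC hearts 1 and 2 (adjusted p 0.702). P3h4, a partner of P3h3 in lysyl hydroxylation, moved the other way, from 40.6 to 21.2 CPM (-0.93 ± 0.16, adjusted p 0.00127). In control hearts P3h4 went from 31.0 to 20.1 CPM (-0.62 ± 0.16, adjusted p 0.0303), and by -0.31 without control TAC hearts 1 and 2 (adjusted p 0.268).

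Genes that act on procollagen propeptides were also called. Pcolce2, the paralog of Pcolce, rose by 0.72 ± 0.20 after TAC in control (adjusted p 0.0433) and by 0.81 ± 0.20 in Trbp-cKO hearts (adjusted p 0.0165), from 13.2 to 21.7 and from 18.6 to 32.5 CPM. Adamts2, the procollagen N-proteinase, rose by 0.76 ± 0.16, 0.69 ± 0.16 and 1.08 ± 0.16 after TAC in control hearts, between the TAC groups and after TAC in Trbp-cKO hearts (adjusted p 0.0159, 0.0242 and 0.000644). Its relative Adamts3 fell after TAC by 1.05 ± 0.28 in control and by 1.61 ± 0.28 in Trbp-cKO hearts (adjusted p 0.0396 and 0.00188), to means of 1.48 and 1.57 CPM. Control TAC hearts 1 and 2 were at 0.891 and 0.911 CPM of Adamts3 and hearts 3 and 4 at 2.15 and 1.98 CPM, and without the first pair the value in control hearts was -0.58 (adjusted p 0.419). Rcn3, an endoplasmic reticulum chaperone, rose by 0.86 ± 0.20 and 0.68 ± 0.19 after TAC in control and Trbp-cKO hearts (adjusted p 0.0209 and 0.0365). Without control TAC hearts 1 and 2 the values after TAC in control hearts were 0.46 for Rcn3, 0.42 for Pcolce2 and 0.50 for Adamts2, and none passed (adjusted p 0.341, 0.538 and 0.252). Tll2, a relative of Bmp1 at or below 1.31 CPM in every heart, fell by 3.07 ± 0.86 in Trbp-cKO hearts (adjusted p 0.0341).

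Of the 11 fibrillar chains, 5 were called higher after TAC in control hearts (2.5% of all genes), 4 after Trbp deletion in TAC hearts (1.55%) and 6 after TAC in Trbp-cKO hearts (3.23%), and none was called between the sham groups. Their median log2 fold changes were 0.99, 0.55 and 1.14 in those comparisons, against 0.17, 0.09 and 0.38 for the 10 enzymes, chaperone and enhancer. Without control TAC hearts 1 and 2, none of the chains was called after TAC in control hearts, where their median was 0.58, and 5 were called between the TAC groups. In that fit 87 of all 20821 genes were called higher after TAC in control hearts and 303 between the TAC groups. There the chains had a median of 0.90 and the 10 members 0.23. After TAC in control hearts the median of the 10 members was also lower without the pair, as given above. Of the 6 basement membrane chains, 2 were called higher in each genotype after TAC, and in control hearts 1 without hearts 1 and 2. Between the TAC groups none of these 6 was called with all hearts and 2 were called higher without that pair.

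The deviations of log2 CPM from the group means were used to see which members moved together from heart to heart within groups, as a description over 16 hearts that share libraries and groups. Plod3 and Bmp1 (r = 0.91), Pcolce and Bmp1 (r = 0.89) and Plod3 and Pcolce (r = 0.88) were the closest pairs, and without the 2 hearts farthest from the median of the first gene r was 0.86, 0.81 and 0.78. Next came Plod3 and Serpinh1 (r = 0.81, and 0.51 with the same omission) and Plod1 and Serpinh1 (r = 0.80, and 0.75). P4ha1 and Plod1 had r = 0.71 (0.61 with that omission) and P4ha1 and P4ha2 r = 0.70 (0.82). The lowest value was that of P4ha2 and Bmp1, at -0.52 (-0.61). Over all genes tested with a mean log2 CPM of at least 1, the nearest to Bmp1 were Kctd17 (r = 0.99) and Nxf1 (r = 0.99), and those nearest to Plod3 were Ppan (r = 0.97) and Twf1 (r = 0.97). Pcolce was nearest to Npdc1 and Mall (both r = 0.95), Serpinh1 to Myd88 (r = 0.95) and Dctn5 (r = 0.93), and P4ha1 to Ap3d1 (r = 0.94) and Nop2 (r = 0.93). P4ha2 was nearest to Cct7 (r = 0.90) and Wdr83 (r = 0.86), P4ha3 to Pced1b (r = 0.91) and Gm42417 (r = 0.90), and Plod1 to Lgi4 (r = 0.89) and Nol9 (r = 0.88). For Plod2 the nearest were Pamr1 (r = 0.85) and Dlg2 (r = 0.85) and for P3h1 Synpo (r = 0.81) and Ptgfr (r = 0.80). For Plod3, Bmp1 and Pcolce alike, control TAC hearts 1 and 2 lay above and hearts 3 and 4 below the mean of their group. Leaving out 2 hearts cannot remove this split, so whether these r values hold apart from it was not tested.

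In GRCm38 with the GENCODE M21 annotation, P4ha1 (ENSMUSG00000019916) lies at chr10:59323296-59373304 (+), P4ha2 (ENSMUSG00000018906) at chr11:54100095-54131665 (+) and P4ha3 (ENSMUSG00000051048) at chr7:100285520-100319699 (+). Plod1 (ENSMUSG00000019055) lies at chr4:147909753-147936767 (-), Plod2 (ENSMUSG00000032374) at chr9:92542223-92608428 (+) and Plod3 (ENSMUSG00000004846) at chr5:136987019-136996648 (+). Serpinh1 (ENSMUSG00000070436) spans chr7:99345376-99353239 (-), Pcolce (ENSMUSG00000029718) chr5:137605103-137613784 (-), Bmp1 (ENSMUSG00000022098) chr14:70474558-70520234 (-) and P3h1 (ENSMUSG00000028641) chr4:119232915-119248975 (+). P4ha1, P4ha2, P4ha3, Serpinh1, Bmp1 and P3h1 shared no exon bases with another annotated gene and no run of 75 bases with another gene's exons, and Pcolce shared 2.93% of its exon bases with Fbxo24 and with Gm36266.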

How the data were processed

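The deposited values are counts per gene and heart, which the authors made by trimming paired reads of 150 bases with Cutadapt 2.3, aligning them to GRCm38 with HISAT2 2.1.0, estimating transcript coverage over the GENCODE annotation with StringTie 1.3.4 and converting coverage to counts with an assumed read length, 75 bases by default. The counts may therefore exceed the fragments sequenced by a common factor, and fits were repeated with counts divided by 2. The annotation release, the strand setting and the read length used were not given in the sources used here, and symbols came from GENCODE M21, which placed 55480 of the 55573 genes.

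Each library was a separate heart. edgeR 4.0.16 in R 4.3.3 tested the deposited counts of all 16 hearts in a single robust quasi-likelihood fit with TMM library sizes, its default filter and a coefficient per group. P-values were adjusted by the Benjamini-Hochberg method over all 19955 genes that entered the fit. As in the study, a gene was called where its adjusted p did not exceed 0.05 and its log2 fold change reached 0.8 in either direction. Each ± after a log2 fold change is a standard error. CPM used TMM-adjusted library sizes, and single genes were compared by a two-sided exact permutation test over 70 assignments of hearts, whose smallest p is 0.0286 and which was not adjusted over the members. The fit was tested on simulated data. Replicate numbers matched between groups only as names: over 24 pairs of equal number, the correlation of deviations from the group means ran from -0.43 to 0.21.

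The members, the lists and the alternatives were chosen with earlier results of these data known, and the study itself displayed collagen genes of these hearts, so no list is independent evidence. Named genes were all 10 members, Tarbp2, Col1a1, each gene of the processing list called in some comparison and the 2 nearest genes of each member. P4hb, Acta2 and the markers Myl2, Myl4, Myl7, Sln and Nppa fall outside this rule and were chosen after their values were seen. The clock score, the fit without mitochondrial transcripts, the omission of control TAC hearts 1 and 2, the level order by longest transcript and the sum without Acta2 were added after seeing the data. Other alternatives were scaling, filters, thresholds, 2-group fits, the exact test of edgeR, DESeq2 1.42.0, the replicate number as a block and each heart left out in turn. A comparison of the proteins was not made here.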

Additional observations from a re-analysis of the deposited data

Results flagged for a closer look

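In each group of 4 hearts, the gap between the highest or lowest heart and its nearest neighbour was divided by the range of the group and held against Dixon's critical value, over 40 checks of 10 genes in 4 groups, of which chance alone passes about 1 in 20. Of these, 2 values passed. P4ha3 stood at 0.683 CPM in control TAC heart 2, with a gap of 0.917 of the range, and Plod3 stood at 45.5 CPM in Trbp-cKO sham heart 3, with a gap of 0.884 of the range.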

How the results depend on the processing

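Over all alternatives, 1205 values of single members kept their direction and their side of the adjusted p threshold, 44 lost an adjusted p of at most 0.05, 29 gained one and 47 changed sign. None of the values that changed sign passed, and their lowest adjusted p was 0.243. Where a cause is not given by the construction of an alternative, the cause was not tested. The count of members called higher after TAC in control hearts, 1, was 0 in the fit of the groups compared, 0 without control TAC hearts 1 and 2, 0 with a threshold of 1, 2 with no threshold on the fold change and 0 to 2 when each heart was left out. Members called lower in Trbp-cKO sham against control sham, 0, came to 1 in the fit of the groups compared, in edgeR's exact test, in DESeq2, without control TAC hearts 1 and 2 and with no threshold on the fold change, and to 0 to 1 when each heart was left out. Members called higher in Trbp-cKO TAC against control TAC, 0, came to 1 with scaling by library size only and in DESeq2, to 2 without control TAC hearts 1 and 2 and to 0 to 1 when each heart was left out. Members called higher after TAC in Trbp-cKO hearts, 2, came to 1 with the filter of 1 CPM, which removes P4ha3, to 1 with the replicate block, to 0 with the clock score, to 1 with a threshold of 1, to 5 with none and to 1 to 3 when each heart was left out. For the interaction, 0 became 1 in DESeq2 and 0 to 1 when each heart was left out.

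Signs changed for these log2 fold changes. After TAC in control hearts, Plod2 was -0.066 without control TAC hearts 1 and 2. Between the sham groups, Plod3 was 0.00017 with library size only and 0.11 with the clock score, P3h1 was -0.10 with the clock score, and Plod2 ran from -0.24 to 0.027 when each heart was left out. Between the TAC groups, P4ha2 was -0.018 with the filter of 1 CPM, -0.0026 with counts divided by 2, -0.0098 in the fit of the groups compared and in edgeR's exact test, -0.010 without mitochondrial transcripts and -0.15 without control TAC hearts 1 and 2. Plod1 was 0.10 with library size only and 0.038 without those hearts, Plod3 -0.0048 with the clock score, Serpinh1 0.13 with library size only, 0.018 with no filter, 0.0045 in DESeq2 and 0.40 without those hearts, and Bmp1 0.22 without them. With each heart left out, these ran from -0.061 to 0.093 for P4ha2, -0.10 to 0.0040 for Plod1, -0.056 to 0.14 for Plod3 and -0.16 to 0.23 for Serpinh1. After TAC in Trbp-cKO hearts, Serpinh1 was -0.043 with the clock score. In the interaction, Plod3 was -0.11 and Pcolce -0.29 with the clock score, Pcolce -0.014 with the filter of 1 CPM and -0.14 to 0.17 when each heart was left out, and Bmp1 0.065 without control TAC hearts 1 and 2.

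The replicate block took 3 members past the adjusted p after TAC in Trbp-cKO hearts rather than 5 (P4ha3 at 0.0544 and Plod3 at 0.0705 no longer passed) and left Bmp1 at 0.0954 after TAC in control hearts. Of 16 hearts, 1 correlated best with its own number, and 3 of 24 pairs were above 0.1, so the numbers do not pair the hearts. The fit without mitochondrial transcripts changed no member's side of the threshold. Scaling by library size only moved the median of all genes to 0.11 between the sham groups and to 0.13 between the TAC groups.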

Other observations

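Markers of other cell types were summed in each heart from lists of general markers. Fibroblast markers ranged from 1475 to 1579 CPM in control sham, 1565 to 2220 in control TAC, 1604 to 2159 in Trbp-cKO sham and 1417 to 2264 in Trbp-cKO TAC hearts. Endothelial markers ranged from 760 to 883, 779 to 1636, 699 to 1219 and 665 to 1151 CPM in the same order, and control TAC hearts 1 and 2 held the highest sums, 1496 and 1636 CPM. Smooth muscle and pericyte markers lay between 718 and 846 CPM in Trbp-cKO TAC and between 869 and 1070 CPM in the other 12 hearts. Over all 16 hearts macrophage markers lay between 279 and 465 CPM, lymphocyte markers between 1.25 and 3.78 CPM and erythroid markers between 1102 and 3729 CPM. Markers of chondrocytes and osteoblasts lay between 5.46 and 8.60 CPM in both sham groups and between 8.91 and 19.3 CPM in both TAC groups. The atrial list, in which Nppa made up nearly all, ran from 542 CPM in a control sham to 15676 CPM in a Trbp-cKO TAC heart.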
